A study of Drosophila melanogaster with 2 samples.

Results

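The protein-coding genes of chromosome 4 were examined for the binding of a fusion between the product of the CG1024 gene and enhanced green fluorescent protein (eGFP) in whole Drosophila melanogaster embryos. Genes were taken by their annotation (Ensembl release 115, build dm6): of 13968 protein-coding genes in the genome 80 lay on chromosome 4, and after leaving out the ribosomal protein gene RpS3A, the respiratory chain gene ND-49 and the Polycomb group gene pho, 77 remained. The data are chromatin immunoprecipitation with sequencing (ChIP-seq) peak lists from 1 group of 2 biological replicates. All embryos were 0 to 24 hours old, came from the transgenic strain CG1024-GFP, whose insertion targets CG1024 per the labels, and were taken whole with their sex not recorded, so each list averages over all cell types and stages of that window. Sonicated chromatin fragments of 200 to 800 bp were pulled down by an anti-GFP antibody (an antibody field of the labels names CG1024 instead). All samples share 1 genotype and condition, so the comparisons are between these genes and the rest of the genome and between the replicates. Peaks come from lists filtered by the irreproducible discovery rate (IDR), a measure of how well peaks keep their rank between replicates, and each peak has a summit (its highest point) and a signal, which is the authors' own value with no stated scale. Signals are compared within 1 list, except that the values of the 2 replicates are set side by side. Those come from separate lists whose scales may differ, so their ratios do not measure a difference in binding. Read counts are not part of the lists and the depth of each library is unknown. The 95% Wilson intervals given for shares cover counting of genes or summits only.

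Chromosome 4 is the smallest autosome of the fly. It carries marks of heterochromatin over most of its length, including heterochromatin protein 1, yet its genes are transcribed at levels like those of other chromosomes, and many of them are bound by the chromosome-specific protein Pof. Among them are the Pax6 genes ey and toy, the Hedgehog effector ci, the Wnt effector pan and several genes of axon guidance and synaptic release, next to widely used genes of translation, protein turnover and lipid transport.

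In the series-level conservative list, 36 of the 77 chromosome 4 genes (46.8%, 36.0 to 57.8) carried a promoter summit, meaning one no more than 500 bp from an annotated transcription start site (TSS) of the gene. Over all protein-coding genes the share was 14.1%, and over the 13888 genes of the other chromosomes it was 13.9% (13.4 to 14.5). Of the 36 genes of 3L that start beyond position 23000000, next to the centromere, 23 (63.9%, 47.6 to 77.5) had one. The share on chromosome 4 thus lay above that of the rest of the genome in these counts, while its interval overlapped that of the centromere-proximal genes of 3L. Each replicate's own thresholded list gave a similar count. It was 42 of 77 (54.5%) in replicate 1, where the genome-wide share was 11.4%, and 37 of 77 (48.1%) in replicate 2, where it was 10.5%. The other series-level list gave 42 of 77 (54.5%) beside 16.2% genome-wide. All 36 genes were found again in each of these 3 lists. The lists come from the same 2 replicates as the conservative list, so they are not an independent check.

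The 37 promoter summits of these genes include the following. The 5 strongest are shown because they carry the highest signals among these genes, and 2 more because they are the strongest that serve a pair of genes. Each window holds 121 bases of the dm6 reference (RefSeq) with the summit at its centre, written 5′ to 3′ along the gene named, or the first of a pair. Capitals mark matches to any of 6 short motifs described with the sequence results below.
Gyf (chr4:867049-867169, minus strand): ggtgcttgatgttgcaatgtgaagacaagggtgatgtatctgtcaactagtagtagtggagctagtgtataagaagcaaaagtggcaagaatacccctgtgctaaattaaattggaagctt
anne (chr4:132086-132206, plus strand): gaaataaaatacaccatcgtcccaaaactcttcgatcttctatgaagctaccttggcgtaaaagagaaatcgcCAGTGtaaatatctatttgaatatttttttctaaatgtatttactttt
PlexB (chr4:43763-43883, minus strand): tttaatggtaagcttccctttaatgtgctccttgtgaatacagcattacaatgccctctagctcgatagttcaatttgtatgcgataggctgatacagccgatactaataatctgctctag
Crk (chr4:210146-210266, plus strand): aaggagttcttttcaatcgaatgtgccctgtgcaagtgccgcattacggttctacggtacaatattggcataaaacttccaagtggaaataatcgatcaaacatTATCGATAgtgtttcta
CG31998 (chr4:205949-206069, minus strand): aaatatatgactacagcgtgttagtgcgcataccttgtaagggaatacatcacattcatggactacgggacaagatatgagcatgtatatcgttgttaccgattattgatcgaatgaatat
Zyx and apolpp (chr4:1060889-1061009, minus strand): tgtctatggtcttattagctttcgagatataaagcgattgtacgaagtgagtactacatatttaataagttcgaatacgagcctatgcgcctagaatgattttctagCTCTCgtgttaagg
Dyrk3 and Cadps (chr4:1230702-1230822, minus strand): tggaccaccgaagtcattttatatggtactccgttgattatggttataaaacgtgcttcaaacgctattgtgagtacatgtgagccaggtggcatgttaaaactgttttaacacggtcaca

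Only anne, Crk and the Zyx and apolpp window hold such a match in these 121 bases, and the windows of Gyf, PlexB and CG31998 also held none when widened to 100 bp each side of the summit.

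Promoter summits on chromosome 4 were strong. Their median signal was 538 (quartiles 303 and 780, 37 summits), against 98.4 (quartiles 69.5 and 164) for 1506 promoter summits on the other chromosomes. The 26 promoter summits of centromere-proximal 3L genes had a median of 976. Of the 37, 31 (83.8%) lay in the strongest 10% of the conservative list, compared with 13% of promoter summits elsewhere. The share was similar at centromere-proximal 3L, with 21 of 26 (80.8%). Chromosome 4 held 61 of the 3397 peaks of the list (1.80%), and promoter summits of the 77 genes were 17 of its 100 strongest peaks. Their signals ran from 62.3 at CaMKII to 1367 at Gyf.

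**Figure D1:**
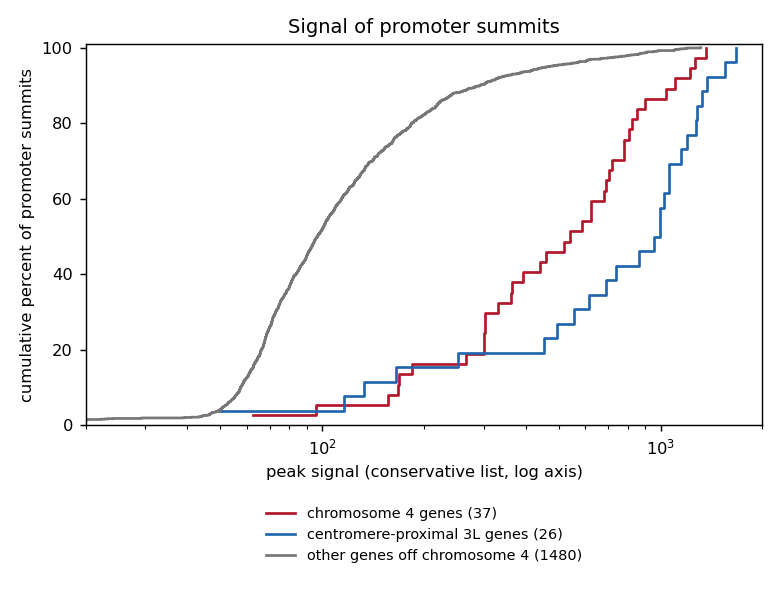
Cumulative percent of promoter summits (vertical axis) against peak signal in the conservative list (horizontal log axis), for chromosome 4 genes, for 3L genes beyond position 23000000 and for other genes off chromosome 4, with the number of summits in parentheses. The chromosome 4 curve lies right of that of the other genes over almost its whole length. The median is 538 on chromosome 4, and 98.4 over all genes off chromosome 4, those of 3L included.

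The replicates ranked the chromosome 4 summits alike. A ranked peak of each replicate overlapped all 37, and 36 (97.3%) overlapped a thresholded peak of both, against 54.8% of promoter summits on other chromosomes. The exception was the weaker CaMKII summit, which had 27.3 in replicate 1 and 36.6 in replicate 2 and overlapped no thresholded peak of either. Across the 37 summits Spearman's rho between the replicates was 0.979, and across the promoter summits elsewhere it was 0.790. These are descriptions across summits, which share the same 2 libraries and were selected by IDR for like rank. The chromosome 4 summits were also stronger, with a median signal of 538 against 98.4 elsewhere. Neither the share found in both replicates nor rho was compared at matched signal. Whether chromosome 4 differs in these measures from equally strong summits elsewhere was therefore not tested. Centromere-proximal 3L summits were close to those of chromosome 4 in these measures, with 96.2% in both replicates and a rho of 0.964. Signal was higher in replicate 2 than in replicate 1 at 29 of the 37 summits, with a median ratio of replicate 1 to replicate 2 of 0.888, against 1.01 elsewhere and 0.819 at centromere-proximal 3L. Among summits in the strongest 10% the medians were 0.860 on chromosome 4 and 0.902 on the other chromosomes. The widest departure was at Mitf, with 109 in replicate 1 and 44.3 in replicate 2, a ratio of 2.45.

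**Figure D2:**
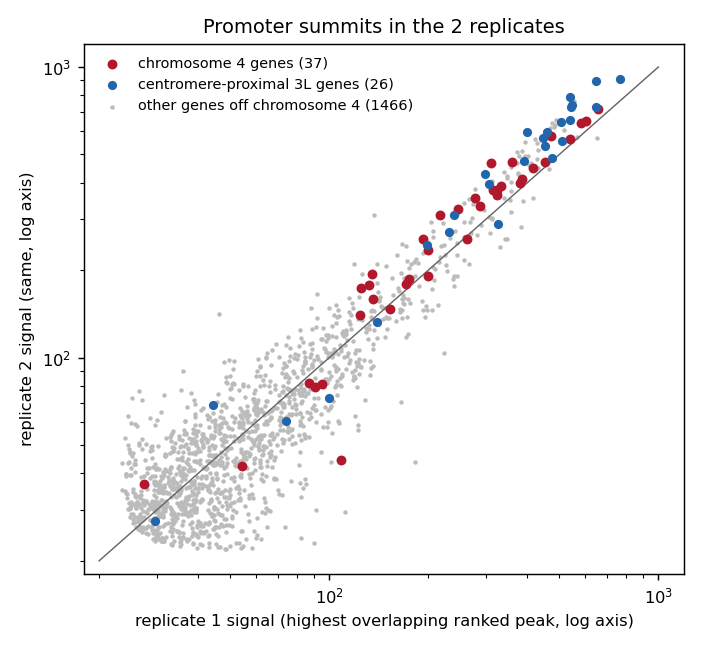
Signal of promoter summits in replicate 2 (vertical log axis) against replicate 1 (horizontal log axis), each point being 1 conservative summit with the highest signal among the overlapping ranked peaks, and the line marking equal values. Chromosome 4 summits lie in the upper part of the cloud and mostly just above the line, with Mitf (109 in replicate 1 and 44.3 in replicate 2) below it.

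Most of these summits lay just upstream of the start site. The median offset from the nearest TSS of the gene was -61 bp (quartiles -87 and -49, negative being upstream), 34 of 37 (91.9%) were upstream, and 28 (75.7%) fell within the first 100 bp upstream. On the other chromosomes the median was -78.5 bp, with 82.7% upstream and 41.8% within the first 100 bp. Centromere-proximal 3L genes had 88.5% within that stretch. The summits downstream of a TSS were those of CG11076 (5 bp), Ank, an ankyrin gene (34 bp, in its 5′ UTR), and the stronger of 2 at MED26 (422 bp, in an intron). Among those farther upstream were CG32017 (164 bp), CaMKI (234 bp), the weaker CaMKII summit (269 bp) and mGluR (338 bp).

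**Figure D3:**
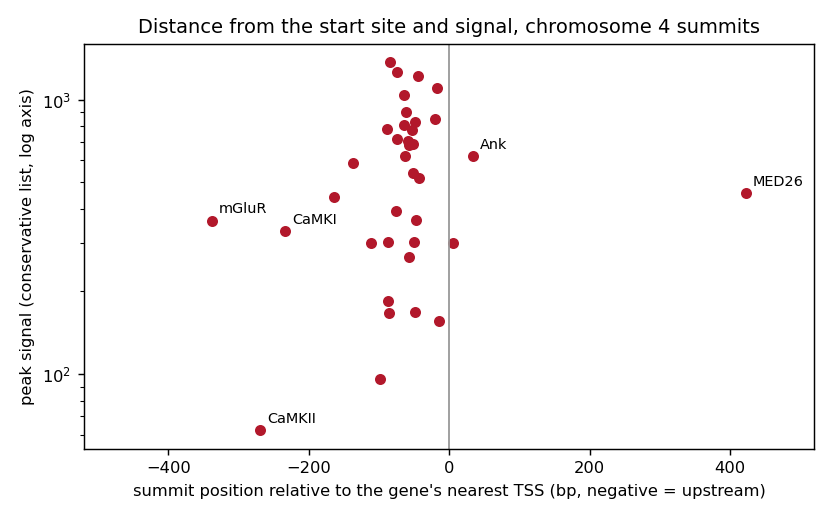
Peak signal in the conservative list (vertical log axis) against the position of each of the 37 promoter summits relative to the nearest TSS of its gene (horizontal axis, bp, negative upstream), a summit that serves 2 genes being placed at the nearer. The points gather in the 100 bp upstream of the start site, where 28 of 37 lie.

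The strongest summit was at Gyf (FBgn0039936, minus strand), whose product acts in translational repression. It lay at 867109, 84 bp upstream of the TSS, with 1367 in the conservative list, 654 in replicate 1 and 718 in replicate 2. The summit of anne (132146) had 1264, with 604 in replicate 1 and 654 in replicate 2. These were followed by PlexB and Crk, described with the signalling genes, and by CG31998 (summit 206009), which had 1039, with 471 in replicate 1 and 577 in replicate 2. In both replicates the same 3 genes, Gyf, anne and PlexB, led the 77.

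**Figure D4:**
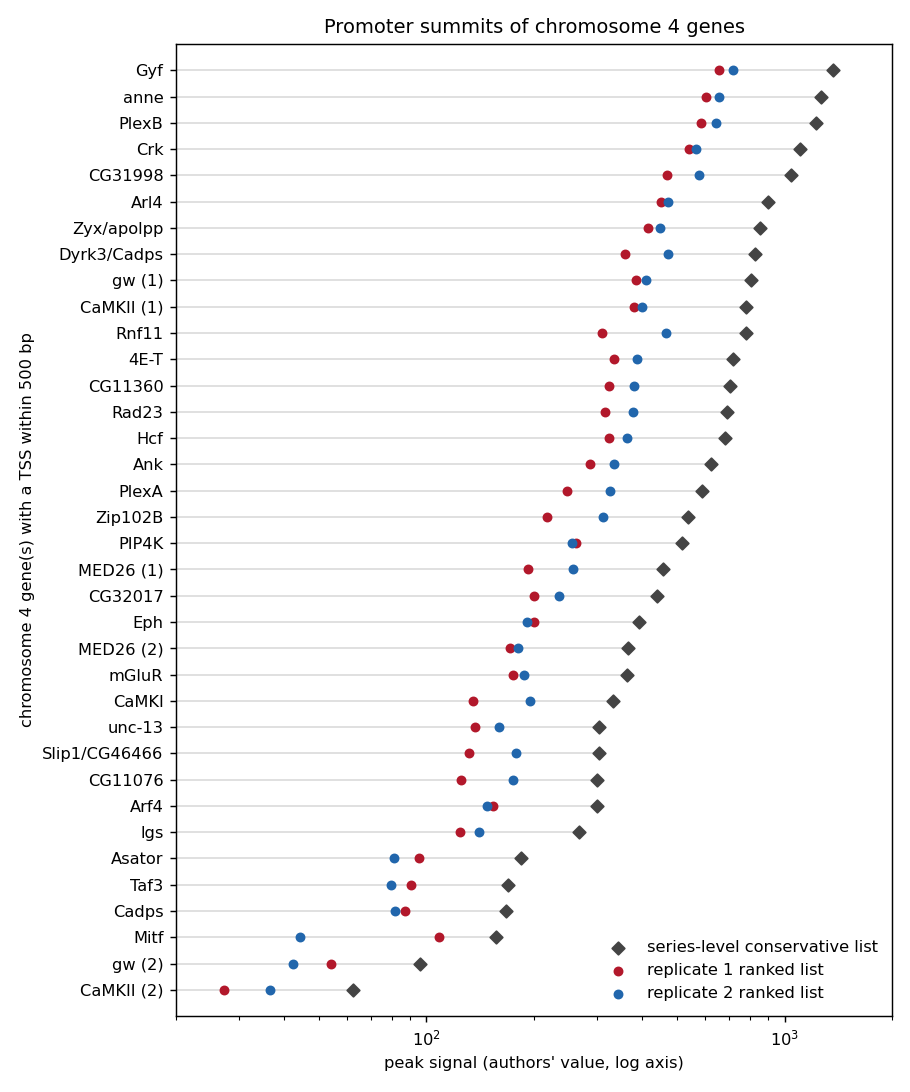
Signal (horizontal log axis) of 36 of the 37 promoter summits of chromosome 4 genes (rows) in the conservative list (diamonds) and in each replicate's ranked list (circles), with genes that share a summit joined by a slash and several summits of 1 gene numbered. Conservative signals run from 62.3 at the weaker CaMKII summit to 1367 at Gyf, and the replicates' points lie close together except at Mitf.

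A mixed group covered RNA silencing, translation, energy and protein turnover, with the lipid carrier gene apolpp and the DNA glycosylase gene Tdg. It carried a summit at 5 of 8 genes (62.5%, 30.6 to 86.3). The median signal was 806 over the strongest summit of each gene. The genome-wide share, 14.1%, lies below that interval, and the 46.8% of all 77 genes lies within it. The intervals of the other role groups below also include 46.8%, so none is set apart from the chromosome 4 genes as a whole. Besides Gyf, the genes of this group with a summit were gw, apolpp, 4E-T and Rad23. The gene gw, which encodes the GW182 protein of microRNA silencing, had 2 summits. The stronger, at 660673, had 806, with 385 in replicate 1 and 410 in replicate 2, and the weaker, at 660081 in an intron, had 96.0, with 54.2 in replicate 1 and 42.5 in replicate 2. The gene apolpp, which encodes the precursor of the apolipoproteins of the blood lipid carrier lipophorin, shared a summit of 853 with Zyx. The translation regulator gene 4E-T had 717, with 333 in replicate 1 and 388 in replicate 2. Rad23, whose product carries ubiquitinated proteins to the proteasome, had 692, with 316 in replicate 1 and 377 in replicate 2. The genes eIF4G1 and Tdg (a translation initiation factor and a DNA glycosylase) had none, and ATPsynbeta, the ATP synthase beta subunit gene, had one in the replicates' own lists only.

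Signalling and guidance genes had a summit at 9 of 14 (64.3%, 38.8 to 83.7), with a median of 586. Both semaphorin receptor genes had one. PlexB had 1221 at 43823, with 583 in replicate 1 and 644 in replicate 2, and PlexA had 586 at 1027238, with 247 in replicate 1 and 326 in replicate 2. Crk, which encodes an adaptor that links tyrosine kinases to small GTPases, had 1102, with 540 in replicate 1 and 566 in replicate 2. The small GTPase gene Arl4 had 901, with 451 in replicate 1 and 473 in replicate 2. The kinase gene Dyrk3 shared a summit of 826 with Cadps. The other signalling genes with a summit were weaker. They were the lipid kinase gene PIP4K (519), the receptor tyrosine kinase gene Eph (391), the calmodulin-dependent kinase gene CaMKI (332) and the kinase gene Asator (184). The Eph summit lay 76 bp upstream of its TSS. The nearest conservative summit to Ephrin, the gene of its ligand, lay 888 bp away, at ND-49, but Ephrin did have a promoter summit in the thresholded list of replicate 1 (120) and in the other series-level list. The TGF-beta family ligand genes Actbeta, mav and myo had none in the conservative list, and myo had one in the other series-level list. RhoGAP102A had none in these lists.

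The group listed under muscle and cytoskeleton had a summit at 3 of 4 genes (75%, 30.1 to 95.4), beside 14.1% genome-wide. These were Zyx, the gene of the focal adhesion protein zyxin, Ank (622, with 287 in replicate 1 and 333 in replicate 2) and Slip1 (303, with 132 in replicate 1 and 178 in replicate 2). The place of Slip1 in this group comes from the list alone. Its summit lay 410 bp from Slip1 but 87 bp from CG46466, and was not counted at Slip1 with a TSS window of 200 bp. The gene bt, which encodes the giant muscle protein projectin and spans 52075 bp, had none, and its nearest summit lay 27495 bp from a TSS.

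Synaptic and neuronal membrane genes had a promoter summit at 3 of 9 (33.3%, 12.1 to 64.6). That interval includes both the genome-wide 14.1% and the 46.8% of all 77 genes. Cadps, whose product primes dense-core vesicles for release, had 826 at the summit it shared with Dyrk3, and a further promoter summit of 167. The metabotropic glutamate receptor gene mGluR had 362, with 175 in replicate 1 and 187 in replicate 2. The vesicle priming gene unc-13 had 304, with 136 in replicate 1 and 159 in replicate 2, at 1 of its 4 annotated start sites. The genes Ekar, Gat, Kif3C, Syt7 and dpr7 had none, and Cals had none in the conservative list but one in the list of replicate 1 (107) and in the other series-level list.

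Transcription factor and coregulator genes had the lowest share of the lists, 5 of 18 (27.8%, 12.5 to 50.9). Its interval too includes both the genome-wide 14.1% and the 46.8% of all 77 genes. The 5 were Hcf, MED26, lgs, Taf3 and Mitf. Hcf had 683, with 323 in replicate 1 and 364 in replicate 2. The stronger MED26 summit had 457, with 192 in replicate 1 and 256 in replicate 2, and the weaker had 364, with 171 in replicate 1 and 180 in replicate 2. The others had 266 (lgs), 169 (Taf3) and 156 (Mitf). Hcf encodes the host cell factor, a chromatin cofactor, MED26 a Mediator subunit, lgs the Wnt coactivator Legless, and Taf3 a subunit of the general factor TFIID. Mitf, a basic helix-loop-helix factor gene, had the lowest signal of the list. The genes without a summit were ci, ey, toy, pan, sv, zfh2, onecut, Sox102F, fd102C, NfI, dati, fuss and Pur-alpha. The nearest conservative summit lay 784 bp from a TSS of ey and 2023 bp from one of pan (the RpS3A summit of 1223). It lay 2959 bp from a TSS of onecut (the Eph summit of 391) and 6464 bp from one of ci. For sv, zfh2 and toy the distance was 14813, 19003 and 30099 bp. Of these 13 genes, the thresholded list of replicate 1 held Sox102F, with a signal of 40.1, as did the other series-level list, and that of replicate 2 held none.

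**Figure D5:**
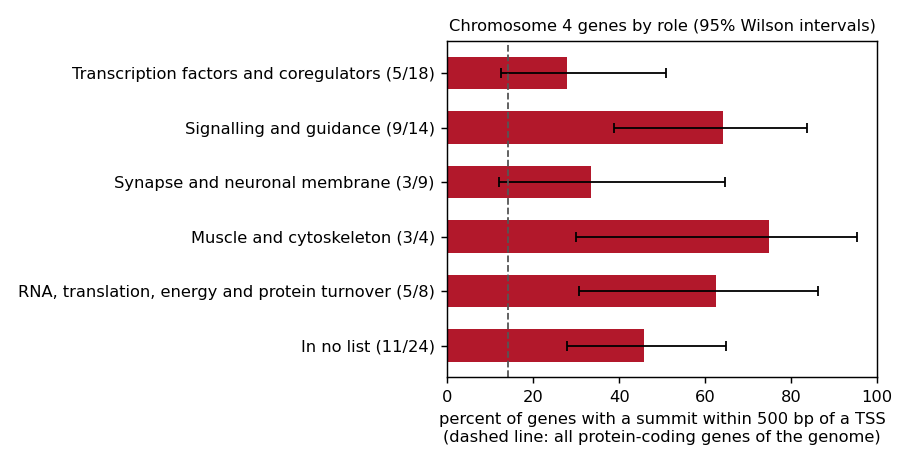
Percent of genes with a conservative summit within 500 bp of a TSS (horizontal axis) for chromosome 4 genes grouped by role (rows, genes with a summit over genes in the group), with 95% Wilson intervals as bars. Transcription factor genes have the lowest share (27.8%), and the dashed line gives the share over all protein-coding genes (14.1%). Every interval includes 46.8%, the share over all 77 chromosome 4 genes.

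The remaining 24 genes were in none of these groups, and 11 of them (45.8%, 27.9 to 64.9) had a promoter summit. The calmodulin-dependent kinase gene CaMKII had 780 at the stronger of its 2 summits, with 381 in replicate 1 and 400 in replicate 2. The RING finger gene Rnf11 had 778, with 309 in replicate 1 and 466 in replicate 2, the lowest ratio of replicate 1 to replicate 2 of the 37 summits (0.664). Beyond these and anne and CG31998, the genes with a summit included CG11360 (704), the zinc transporter gene Zip102B (538), CG32017 (442), CG46466 (303), CG11076 (300.1) and the small GTPase gene Arf4 (299.9). The other 13 included PMCA, a plasma membrane calcium pump gene, yellow-h and Mpv17.

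Several summits served more than 1 gene or start site. A summit was shared by 2 genes in 3 cases. The one at 1060949 lay 31 bp upstream of a Zyx start site and 20 bp upstream of one of apolpp on the opposite strand, with 853 in the conservative list, 415 in replicate 1 and 450 in replicate 2. The one at 1230762 lay 49 bp upstream of Dyrk3 and 75 bp upstream of Cadps, with 826, 359 in replicate 1 and 472 in replicate 2. The one at 663211 lay 87 bp upstream of CG46466 and 410 bp upstream of Slip1. In each pair the summit lay upstream of a start site of both genes, which are on opposite strands, and the lists cannot assign the signal to either gene. The summit at 1060949 also lay in an intron of Zyx, which has a second, farther start site. Conversely, 4 genes (Cadps, CaMKII, MED26 and gw) had 2 promoter summits each. Of the 13 genes with a summit whose start sites spread over more than 1000 bp, 3 had one at every start site, and unc-13, Asator and CG11360 had one at a single site of 4, 5 and 3.

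The remaining 41 genes had no promoter summit, and most were far from any. The median distance from a TSS to the nearest conservative summit was 12241 bp (514 to 44791), and 25 of the 41 were over 5000 bp away. In the series-level ranked list, which keeps peaks below the threshold, 34 of the 41 had no peak summit within 500 bp of a TSS. The other 7 had signals of 5.11 to 89.2, the highest being at PMCA (89.2, global IDR 0.734), eIF4G1 (52.5, 0.0363), Syt7 (47.1, 0.746), Mpv17 (31.7, 0.768) and Kif3C (22.0, 0.880). Of these, PMCA passed in the thresholded list of replicate 1 and in the other series-level list. That other list also had a promoter summit at CG33941, Cals, Ephrin, Sox102F and myo, which are among the 34. Absence from the ranked list therefore does not mean that no list had a summit there. The series-level ranked list held 325 peaks on chromosome 4, against 613 in that of replicate 1 and 235 in that of replicate 2. Many of the 34 genes did have a peak within 500 bp in the ranked list of replicate 1. Examples were ATPsynbeta (149), Ephrin (120), zfh2 (27.9) and ci (22.5). In replicate 2 such peaks were at ATPsynbeta (174) and Ephrin (14.8). Genes with and without a promoter summit were of similar length, with medians of 10684 bp and 10426 bp, and had a median of 2 and 1 annotated start sites. Counting promoter summits of the 77 genes alone, the stretch from Asator to Eph (128 kb) held zfh2, Tdg, Pur-alpha, Ephrin, CG1909 and onecut, but the promoter summit of ND-49 (570867), a gene left out of the 77, divides it. The stretch from CG11360 to MED26 (117 kb) held myo, ey and bt, with 1 summit away from promoters at 696905.

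Several genes fell on one side or the other of the 500 bp limit. Just inside it were Slip1 (410 bp) and the stronger summit of MED26 (422 bp). The call of MED26 does not depend on it, since the weaker summit lay 48 bp from another start site. Just outside it were ATPsynbeta (514 bp, at the CG11076 summit of 300.1), CG33941 (620 bp, at the Taf3 summit of 169), Cals (698 bp, at the Arf4 summit of 299.9) and Kif3C (741 bp). A further summit at 696905 (329 in the conservative list, 159 for replicate 1 and 181 for replicate 2) lay outside all 77 genes, between ey (784 bp) and myo (850 bp). Other lists placed a summit within 500 bp of several of these genes. ATPsynbeta had one in each replicate's own thresholded list, at 149 in replicate 1 and 174 in replicate 2, the replicate 2 peak being the one that also overlaps the CG11076 summit. The thresholded list of replicate 1 also added CG33941 (126), Ephrin (120), Cals (107), PMCA (43.6) and Sox102F (40.1). The other series-level list added the same 5 and myo. With 1000 bp allowed, 45 of the 77 genes had a promoter summit (58.4%), ey, myo, Ephrin, PMCA and ATPsynbeta among the 9 added, beside 16.8% genome-wide.

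Gene bodies held few summits. Between the ends of a gene and over 500 bp from every annotated TSS, 5 of the 77 genes (6.49%, 2.81 to 14.3) had a summit. Of all protein-coding genes 5.55% had one, so the share was near the background. Of the centromere-proximal 3L genes, 14 of 36 (38.9%, 24.8 to 55.1) had one, an interval above that of chromosome 4. The 8 summits had a median signal of 116 (48.3 to 195), against 538 at the promoter summits. Body summits had a median of 84.7 on the other chromosomes and 107 in centromere-proximal 3L genes. On chromosome 4, 4 of the 8 overlapped a thresholded peak of both replicates. Replicate 1 alone gave 8 such summits and replicate 2 alone gave 5. Of the 5 genes, Cadps and CG32017 also had a promoter summit, while JYalpha, Kif3C and Cals had only the body summit. Cadps held 3, all in introns, at 1260571 (195, with 88.5 in replicate 1 and 98.9 in replicate 2), at 1234946 (177, with 73.7 in replicate 1 and no ranked peak in replicate 2) and at 1233518 (110, with 55.5 in replicate 1 and 50.9 in replicate 2). JYalpha, which encodes a sodium pump subunit, had an intronic summit near the end of the assembled chromosome, at 1665 (122, with 66.4 in replicate 1 and 62.2 in replicate 2). The summit at 1148207 (121, with 56.5 in replicate 1 and 69.0 in replicate 2) lay in introns of both Kif3C and CG32017. The summit in Cals, at 1113338 in its 3′ UTR, had 106, with 50.2 in replicate 1 and no ranked peak in replicate 2.

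The strongest body summit lay within an annotated F element, a retrotransposon, and that at 1148207 within an INE-1 element, a short repeat frequent on chromosome 4. None of the 37 promoter summits lay in an annotated element (upper Wilson bound 9.41%), against 2 of the 8 body summits (25%, 7.15 to 59.1). On the other chromosomes 4 of 1506 promoter summits and 9 of 1159 body summits did. Reads from repeated elements can be placed at more than 1 copy, and the sources used here do not give the authors' treatment of such reads. The window at the Cadps summit is shown because it is the strongest of the 8 gene-body summits.
Cadps, intron (chr4:1260511-1260631, plus strand): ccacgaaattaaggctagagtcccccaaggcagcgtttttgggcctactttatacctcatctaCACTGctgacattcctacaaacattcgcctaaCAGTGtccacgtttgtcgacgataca

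It holds CACTG and its reverse complement CAGTG, each in capitals.

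The remaining 16 of the 61 conservative peaks on chromosome 4 lay outside both classes. Of these, 4 lay at the promoters of RpS3A, ND-49 and pho, 3 within 500 bp of the TSS of a non-coding gene alone, and 9 elsewhere. The strongest of the 9 (567, at 63505) lay 5821 bp from a TSS of pan and 6464 bp from one of ci.

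Sequence around the promoter summits was searched for 6 short motifs on both strands, within 100 bp of the summit. TATCGATA, the DNA replication-related element found in promoters of widely expressed genes, was present at 7 of 37 summits (18.9%, 9.48 to 34.2), against 7.77% of promoter summits on the other chromosomes. In windows of the same length centred on the TSS farthest upstream in each gene, it was present at 6 of 36 genes with a summit (16.7%, 7.87 to 31.9), at 0 of 41 without one (upper Wilson bound 8.57%) and at 7.83% of all protein-coding genes. GGTCACACT, the core of promoter Motif 1 that the factor M1BP binds, was at 3 of 37 summits (Rad23 and both pairs shown above). That is 8.11% (2.80 to 21.3), against 4.18% of promoter summits on the other chromosomes. In TSS windows it was at 3 of 36 genes with a summit, 0 of 41 without and 5.28% of all genes. For both motifs the intervals of genes with and without a summit overlap, and no difference was tested.

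The centre of TATCGATA lay 12 bp from the weaker summit of MED26, 17 bp from that of Taf3, 37 bp from that of PIP4K, 48 bp from that of Crk, shown above, and 51 bp from that of Hcf. The windows of the first 3 genes are shown for its position, with the element in capitals.
PIP4K (chr4:1196831-1196951, minus strand): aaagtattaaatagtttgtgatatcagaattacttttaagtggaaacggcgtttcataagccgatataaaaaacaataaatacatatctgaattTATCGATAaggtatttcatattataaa
MED26, weaker summit (chr4:787602-787722, minus strand): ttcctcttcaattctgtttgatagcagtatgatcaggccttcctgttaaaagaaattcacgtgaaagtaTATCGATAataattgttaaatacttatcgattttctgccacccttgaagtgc
Taf3 (chr4:466817-466937, minus strand): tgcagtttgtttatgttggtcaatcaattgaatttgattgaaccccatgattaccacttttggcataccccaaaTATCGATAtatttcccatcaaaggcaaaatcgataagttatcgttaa

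CACTG was at 12 of the 37 chromosome 4 summits (32.4%, 19.6 to 48.5), against 48.1% (45.6 to 50.6) of promoter summits on the other chromosomes and 37.4% of all TSS windows. In the TSS windows CACTG was at 36.1% of chromosome 4 genes with a summit and 31.7% of those without. Its centre lay 10 bp from the summit at Ank, 11 bp at Rnf11 and 15 bp at anne. Each of the 3 GGTCACACT matches overlapped a CACTG. The E-box CAGCTG was at 1 of 37 summits against 12.3% elsewhere and 13.8% of all TSS windows, GAGAG, bound by the GAGA factor, at 6 of 37 against 21.2% and 22.5%, and CANCNCTA, a shortened core promoter element Ohler 7, at 5 of 37 against 16.5% and 12.2%. At 14 of the 37 summits, Gyf, PlexB and CG31998 included, none of the 6 was found. The windows on chromosome 4 were poorer in G and C, with a median of 33.8% against 36.3% at promoter summits elsewhere, and the part of base composition in these shares was not tested.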

How the data were processed

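Both replicates measure 1 condition. Per the deposited inventories, the replicate lists were derived from 1 replicate's alignments plus a further file, and the series-level lists from the alignments of both. The labels name a possible control experiment, which was not analysed here. Coordinates are those of dm6, the build in the labels, which the reference FASTA shares. Aligner and peak caller, with their versions, were not given in the sources used here. Deposited lists give a signal per peak, with no stated scale, and a score of at most 1000. The deposited ranked lists, which have no header, add a column read here as the −log10 of the global IDR, after the usual layout of IDR output. No list gives read counts, so depth is unknown.

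Summits were placed against Ensembl release 115 on 7 chromosomes (3397 of 3401 conservative peaks). Summits at most 500 bp from a TSS of a gene were counted at its promoter, and those inside a gene but over 500 bp from every TSS in its body. A replicate's value is the highest signal among its ranked peaks overlapping by at least 1 bp. Shares carry 95% Wilson intervals. No test was run: 1 group of 2 replicates has no contrast, and genes and summits are not replicates. Whether the replicates came from separate collections is given only as their label of biological replicate. The 5 gene lists hold 54 symbols, of which 53 matched a member. Genes named are those with the 15 strongest promoter summits, those with several or shared summits, those with the 6 strongest body summits, the 5 without a summit with the highest ranked peak, and the members of the lists. Others were named after their values were seen. The values of 1 gene are not reported here, though it is part of all counts. The members, lists and motifs were chosen with earlier results of these data known. Sequences were read from the RefSeq FASTA. Placing functions were checked on made-up summits. Tools were matplotlib 3.10.9, scipy 1.17.1, numpy 2.4.6 and pandas 2.3.3, under Python 3.11.15. Alternatives were other lists, replicates, TSS windows of 200 and 1000 bp, and motif windows of 50 bp.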

Additional observations from a re-analysis of the deposited data

How the results depend on the processing

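The 36 genes with a promoter summit were called in every alternative run except the TSS window of 200 bp, which dropped CaMKI, Slip1 and mGluR. The window of 1000 bp could not drop a gene, and the other lists come from the same 2 replicates. With a window of 1000 bp the share was 58.4%, against 46.8% as reported. Gene-body summits numbered 8 as reported, 5 to 8 with either replicate alone, and 4 among peaks found in both replicates' thresholded lists. The median promoter signal was 391 in the other series-level list, and 183 to 318 with either replicate alone, in each list's own scale. The median distance of a promoter summit from the TSS was 63 bp, and 60.5 to 70.5 bp with either replicate alone. The cause of these shifts was not tested. CACTG lay within 50 bp of 18.9% of summits, against 32.4% within 100 bp, a window of larger size. Signal has no stated scale and no counts stand behind it, so weak summits such as the second one of CaMKII cannot be given an error. No paired analysis was possible because there is 1 group.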

Other observations

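After the windows had been seen, all 2080 sequences of 6 bases (both strands as 1) were counted within 60 bp of the summits, and the ones with the largest excess over promoter summits of the other chromosomes are given as a description with no test. AACAGT was at 11 of 37 chromosome 4 summits (29.7%) against 9.36% elsewhere. TATCGA, which TATCGATA contains, was at 13 (35.1%) against 15%, GTGTAA at 9 (24.3%) against 6.18%, and GAATAC at 9 (24.3%) against 6.71%.

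Of the 8 gene-body summits on chromosome 4, 2 held TATCGATA within 100 bp (25%, 7.15 to 59.1), 1 held CACTG and 1 held GAGAG.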
